A study of Drosophila melanogaster with 3 samples.

Results

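In the chromatin map of CG1529, 584 of the 3905 distinct peaks of the joint list lay outside every annotated gene and more than 500 bp from every transcription start site (TSS), and these intergenic peaks are described here. They made up 14.96% of the list (95% exact Clopper-Pearson interval 13.9 to 16.1%). A peak was placed by its summit, the base of highest signal, against the start of every annotated transcript. The other large classes were 1627 peaks at promoters (a summit within 500 bp of a TSS) and 1592 in introns farther from a TSS. Signal entered only through the joint list itself and the choice of 1 row where an interval was listed more than once, and position alone set the class.

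Whole Drosophila melanogaster embryos, 0 to 14 h old and of both sexes, were the source of the chromatin, and its fragments were mapped by ChIP-seq. They came from a line with a stable transgene for CG1529 fused at its C terminus to GFP, the strain CG1529-GFP. All 3 libraries carried the same transgene and form 1 group of 3 biological replicates, with no second genotype, stage or treatment. The antibody label names CG1529, whereas the free-text label calls each library an input control, and the file listings show each library called against a control alignment, which was not used here. Whole embryos mix all cell types, so a weak peak cannot be told apart from a strong one in few cells.

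CG1529 is predicted to encode a zinc finger protein. Zinc finger proteins often bind DNA by reading short base sequences, and a ChIP-seq peak marks where such a protein was crosslinked to chromatin, directly or through a partner. Sequence between genes holds enhancers, insulators, replication origins, transposons and unannotated transcripts. In the fly genome it often separates a developmental regulator from its neighbours.

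Summit-centred sequences of 251 bases are given first because the base content of the intergenic peaks is the feature the results turn on. They were read from the plus strand of the dm6 reference genome (Release 6), with the summit at base 126, and capitals mark every CACTG on either strand (CAGTG on the strand shown). The first 4 belong to the strongest intergenic peaks for which sequence is printed, each named by the gene of the nearest TSS.
Zip89B, 3R:16309422-16309672: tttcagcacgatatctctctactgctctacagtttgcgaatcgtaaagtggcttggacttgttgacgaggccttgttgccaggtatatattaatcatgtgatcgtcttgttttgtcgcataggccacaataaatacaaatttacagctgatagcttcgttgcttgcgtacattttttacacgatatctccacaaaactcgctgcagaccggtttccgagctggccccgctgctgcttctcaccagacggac
CG31668, 2L:2202274-2202524: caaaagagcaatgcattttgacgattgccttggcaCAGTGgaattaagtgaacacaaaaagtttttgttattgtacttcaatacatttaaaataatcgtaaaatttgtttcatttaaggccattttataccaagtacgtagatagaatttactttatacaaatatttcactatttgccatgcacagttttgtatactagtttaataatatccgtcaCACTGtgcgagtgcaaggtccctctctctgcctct
CG43131, 3R:5113152-5113402: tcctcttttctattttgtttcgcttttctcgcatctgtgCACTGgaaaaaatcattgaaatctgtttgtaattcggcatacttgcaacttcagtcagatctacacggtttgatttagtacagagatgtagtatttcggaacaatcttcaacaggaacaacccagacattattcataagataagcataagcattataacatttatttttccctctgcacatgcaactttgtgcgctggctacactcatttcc
lncRNA:CR45643, 3R:16222366-16222616: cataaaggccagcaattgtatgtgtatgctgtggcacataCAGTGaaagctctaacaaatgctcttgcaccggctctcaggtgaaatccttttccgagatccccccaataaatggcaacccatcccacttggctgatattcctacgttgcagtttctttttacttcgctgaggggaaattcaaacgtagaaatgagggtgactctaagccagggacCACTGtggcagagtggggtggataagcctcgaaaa

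The next 4 are from peaks that hold the word CACTGAGA or its complement within 125 bp of the summit, in order of signal. They show the arrangement that recurred among the intergenic peaks, with CACTG to the left of the summit and CAGTG to the right of it.
slp2, 2L:3832396-3832646: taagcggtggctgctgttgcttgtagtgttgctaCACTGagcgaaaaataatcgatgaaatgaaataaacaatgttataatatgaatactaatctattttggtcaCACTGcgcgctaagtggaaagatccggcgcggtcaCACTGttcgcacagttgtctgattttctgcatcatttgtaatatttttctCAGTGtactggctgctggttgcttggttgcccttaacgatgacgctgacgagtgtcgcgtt
CG43401, 2L:1433771-1434021: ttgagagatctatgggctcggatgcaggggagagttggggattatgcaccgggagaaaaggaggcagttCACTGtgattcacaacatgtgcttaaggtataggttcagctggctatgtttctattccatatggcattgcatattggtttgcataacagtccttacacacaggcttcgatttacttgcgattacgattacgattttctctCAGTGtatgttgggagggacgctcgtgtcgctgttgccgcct
lncRNA:CR45303, 2L:14502652-14502902: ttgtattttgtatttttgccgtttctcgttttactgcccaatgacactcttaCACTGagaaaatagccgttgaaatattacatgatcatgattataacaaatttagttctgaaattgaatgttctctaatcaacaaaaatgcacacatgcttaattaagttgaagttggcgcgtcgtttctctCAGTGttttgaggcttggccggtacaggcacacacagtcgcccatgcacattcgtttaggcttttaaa
tRNA:Leu-CAA-2-2, 3L:13213419-13213669: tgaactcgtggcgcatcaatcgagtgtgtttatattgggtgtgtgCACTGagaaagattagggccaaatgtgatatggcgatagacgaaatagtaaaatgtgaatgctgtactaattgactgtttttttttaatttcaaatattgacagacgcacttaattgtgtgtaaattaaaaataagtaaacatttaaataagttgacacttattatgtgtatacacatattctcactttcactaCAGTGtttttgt

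The strongest peak in the joint list was intergenic. It lay at 3R:16309158-16309868, in a gap of 1841 bp between the 3′ ends of the convergent genes Zip89B, a zinc transporter gene, and Sulf1. Its signal was 3380.1, and it ranked 3, 1 and 1 in replicates 1, 2 and 3. The summit was 847 bp beyond the end of Zip89B and 3789 bp downstream of its TSS. Its window, the first sequence above, holds no CACTG on either strand.

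The second intergenic peak lay at 2R:13035127-13035555 with a signal of 2780.3 and ranks of 6, 5 and 5. It sat in a gap of 36783 bp between the 3′ ends of Su(z)2, a Polycomb group gene, and CG13323. The nearer end was that of CG13323, 9362 bp away. Another, at 2R:12958049-12958424 (signal 1213), lay in the gap between CG13321 and Psc, also a Polycomb group gene, and ranked 62, 101 and 80. Its nearer gene end was that of CG13321, 2539 bp away. Both gaps were convergent.

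The third, at 2L:2202191-2202606 near CG31668, had a signal of 1904 and ranked 30, 11 and 19. The peak at 2R:22802759-22803142 (signal 1563) lay 565 bp beyond the 3′ end of CycB, which encodes the mitotic cyclin B, and ranked 36, 34 and 40. The peak at 3R:5113095-5113470 (signal 1457) lay 4099 bp upstream of CG43131 and ranked 47, 44 and 39. All 3 kept close ranks in every library.

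A pair of strong peaks flanked the same noncoding gene. The peak at 3R:16222308-16222664 (signal 1374) lay 904 bp upstream of the TSS of lncRNA:CR45643 and ranked 43, 31 and 98. The peak at 3R:16224342-16224683 (signal 1144) lay 887 bp downstream of it, beyond its 3′ end, and ranked 131, 68 and 79. In all, 4 intergenic peaks had this TSS as the nearest.

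The peak at 2L:3832365-3832669 (signal 1103) lay in the gap of 9740 bp between slp1 and slp2, neighbouring pair-rule genes that encode forkhead transcription factors. It was 4319 bp upstream of slp2 and ranked 96, 111 and 100. Its sequence, shown above, holds CACTG at 89 and 18 bp to the left of the summit and 17 bp to the right of it on the plus strand, and 67 bp to the right on the minus strand. Of these matches, 2 are part of a longer stretch, GGTCACACT. It was found within 50 bp of the summit in 2 of the 584 intergenic peaks (0.342%) and in none of their flanking windows. All intergenic windows of the same length held it in 0.0450%, all joint peaks in 0.256% and promoter peaks in 0.369%. Within 125 bp of the summit it was in 0.342% of intergenic and 2.52% of promoter peaks.

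Of the 25 strongest intergenic peaks, with signals from 711 to 3380.1, all 25 touched one of the 3921 strongest peaks of every library. Their lowest ranks were 486, 597 and 357 in replicates 1, 2 and 3. The joint list was made from these libraries, which favours such overlap. The only one on chromosome 4, at 4:497763-498065, lay 3893 bp upstream of zfh2, which encodes a zinc finger homeodomain protein. It had a signal of 840.0 and ranked 486, 110 and 150.

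**Figure D1:**
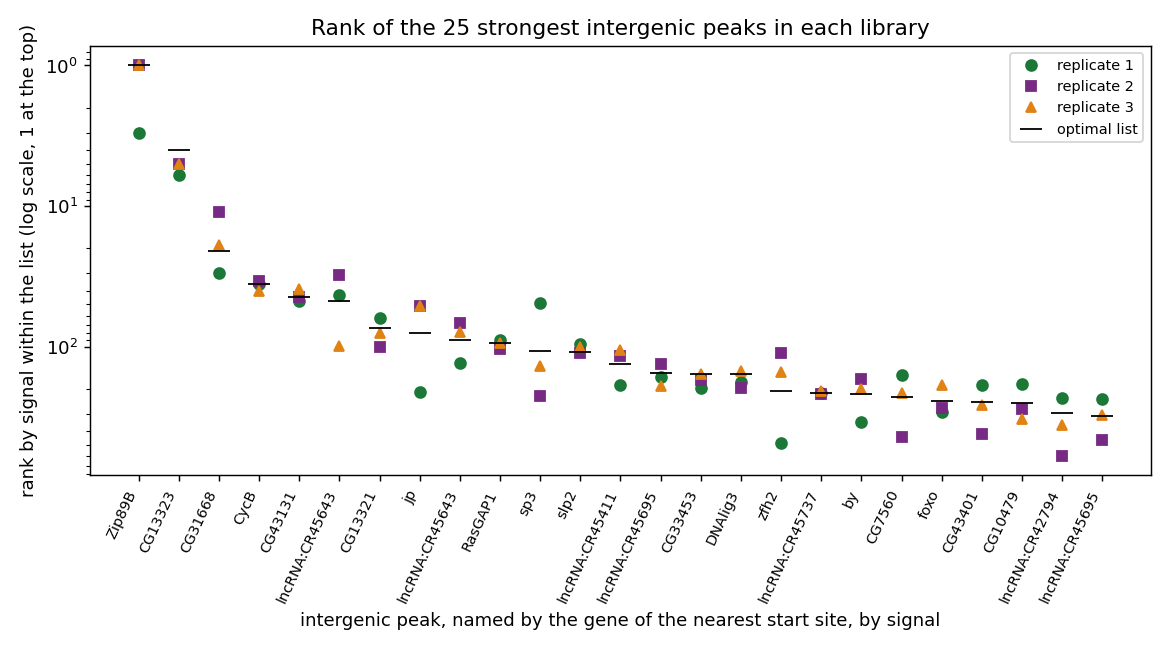
Rank by signal of the 25 strongest intergenic peaks (x axis, named by the gene of the nearest TSS) in each library and in the joint list, on a log axis with rank 1 at the top. The peak near Zip89B ranked 3, 1 and 1, and no peak of this set ranked below 597 in any library.

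Across all 584 intergenic peaks the signal ran from 157 to 3380.1 with a median of 234. The median was 274 at promoters and 247 in introns, and 254.7 over the whole joint list. Signal is the authors' value and is compared here only within 1 list. Of the intergenic peaks, 44.2% (258) lay above the overall median. There were 10 intergenic peaks among the strongest 100, beside 58 at promoters and 30 in introns.

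The intergenic share grew down the list. In the pooled list, of which the joint list is the top, it was 9.80% of the first 500 peaks, 16.6% of ranks 2001 to 3905, and 24.98% of the last 4972. The promoter share moved the other way, from 58.2% to 17.4%. Of 6496 intergenic peaks in the pooled list, 584 (8.99%, interval 8.31 to 9.71%) reached the joint list, against 13% of all pooled peaks and 20.4% of those at promoters.

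**Figure D2:**
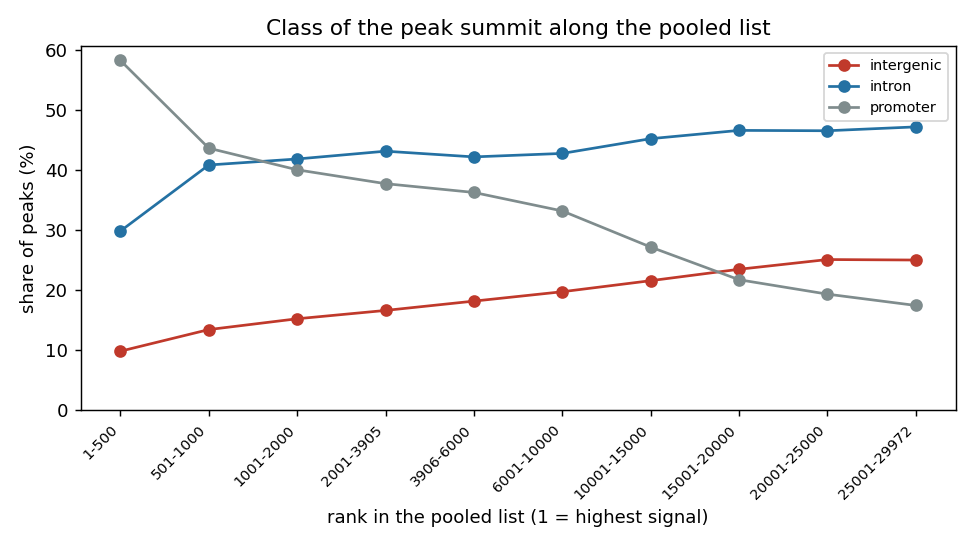
Share of peaks by class of the summit (y axis, percent) along the pooled list (x axis, ranges of rank by signal). The intergenic share rises from 9.80% to 24.98% while the promoter share falls from 58.2% to 17.4%.

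The same order was seen within each library. Intergenic summits made up 17.3%, 12.7% and 14.1% of the 3921 strongest peaks of replicates 1, 2 and 3 (mean 14.7% ± 2.35, SD, n = 3). They made up 28.8%, 20.6% and 23.1% of the weakest listed peaks, the last 3921 of each list less those touching the joint list (24.1% ± 4.22, SD, n = 3). The share was lower among the strongest peaks in 3 of 3 libraries, with a mean difference of -9.45 percentage points. The exact two-sided sign-flip permutation test gave p = 0.25, the smallest that 3 libraries allow, so no comparison between libraries here could pass 0.05.

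The replicates differed in how many intergenic peaks they ranked highly. Of the 584, 89.0% touched a peak among the 3921 strongest of replicate 1, 75.5% of replicate 2 and 83.7% of replicate 3. Replicate 2 gave the lowest share for intergenic peaks, whereas replicate 1 gave the lowest for promoter peaks (80.4%). The Spearman correlation of signal over the intergenic peaks that both lists hold was 0.67 for replicates 1 and 2, 0.74 for 1 and 3, and 0.73 for 2 and 3, a description over 573 to 582 sites of the same chromatin.

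An overlap of at least 50% of each peak with the strongest peaks of all 3 libraries was found for 254 intergenic peaks (43.5%, interval 39.4 to 47.6%), against 45.5% of all joint peaks. With any overlap the count was 358 (61.3%, interval 57.2 to 65.3%), against 64.4% of all joint peaks. Both shares depend on how many peaks of each library are compared: at 50% and 200% of that number, the first was 18.3% and 73.8%. Neither share stood apart from that of the whole list by more than its counting error. By signal, 98.5% of the strongest 195 intergenic peaks touched a strong peak of every library, 72.3% of the middle 195 and 12.9% of the weakest 194. With an overlap of at least 50% these shares were 56.9%, 63.1% and 10.3%. The joint list and its signal come from the same 3 libraries, so low shares among weak peaks were built in and do not measure reproducibility. All 584 were listed somewhere in replicate 3, 582 in replicate 2 and 575 in replicate 1.

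Intergenic sequence by the same rule covered 36.3 Mb, or 27.1% of the sequence of the 6 arms, so the peaks fell at 16.1 per Mb (exact Poisson interval 14.8 to 17.5). Introns held 30.2 per Mb and promoters 89.7 per Mb. The density of intergenic peaks fell with distance from the nearest TSS, from 32.6 per Mb (26.3 to 39.9) at 500 to 1000 bp to 12.6 per Mb (9.70 to 16.2) at 10000 to 20000 bp. Only 9 peaks lay more than 20000 bp away, in 7.74 Mb of sequence, or 1.16 per Mb (0.531 to 2.21). Annotated transposons filled 17.0% of that remote sequence and 4.12% of the sequence at 500 to 1000 bp, and their part in the decline was not tested.

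The median distance to a TSS was 3164.5 bp, with quartiles of 1397.5 and 5938 bp. The nearest TSS faced away from the summit, that is, the summit was upstream of it, for 351 peaks (60.1%, interval 56.0 to 64.1%). The share of intergenic sequence that lies upstream of its nearest TSS was not measured, so this share does not show a preference for upstream positions. The rule's limit of 500 bp cut through a populated range. The nearest members were 502 bp from a TSS of tnc and 506 bp from lncRNA:CR45243 (signals 204 and 296), and the nearest intergenic summits left out were 500 bp from Eip75B and 496 bp from lncRNA:marge (167 and 170.2). There were 28 members up to 600 bp from a TSS and 43 gene-free peaks between 400 and 500 bp.

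The most remote peaks were on 3L. A pair at 3L:10735059-10735494 and 3L:10737148-10737583 lay 36648 and 34559 bp upstream of CG43245, with signals of 164 and 159.8, near the lower limit of the list. The third, at 3L:6823894-6824085, lay 33874 bp downstream of vvl, which encodes a POU domain transcription factor, with a signal of 313 and ranks of 1058, 1654 and 1688.

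Chromosome arms differed. The density was 20.6 per Mb (17.3 to 24.3) on 2L and 20.8 (17.9 to 24.0) on 3L, 15.8 (13.1 to 18.9) on 3R, 11.8 (9.06 to 15.2) on X and 9.80 (7.69 to 12.3) on 2R. In each of the 3 libraries the density on 2L and on 3L was above that on X and on 2R. On 3L it was 24.8, 19.8 and 19.5 per Mb in replicates 1, 2 and 3, and on X 12.4, 6.86 and 11.8. Intron peaks did not share this order, since X had the highest intron density of all arms, 35.9 per Mb (32.3 to 39.7), and 2R held 29.2. Transposons covered 15.1% of intergenic sequence on 2R, 10.6% on X and 10.8% on 3L, and outside them the densities were 11.4, 13.2 and 23.3 per Mb. Chromosome 4 held 4 intergenic peaks and no intron peak.

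**Figure D3:**
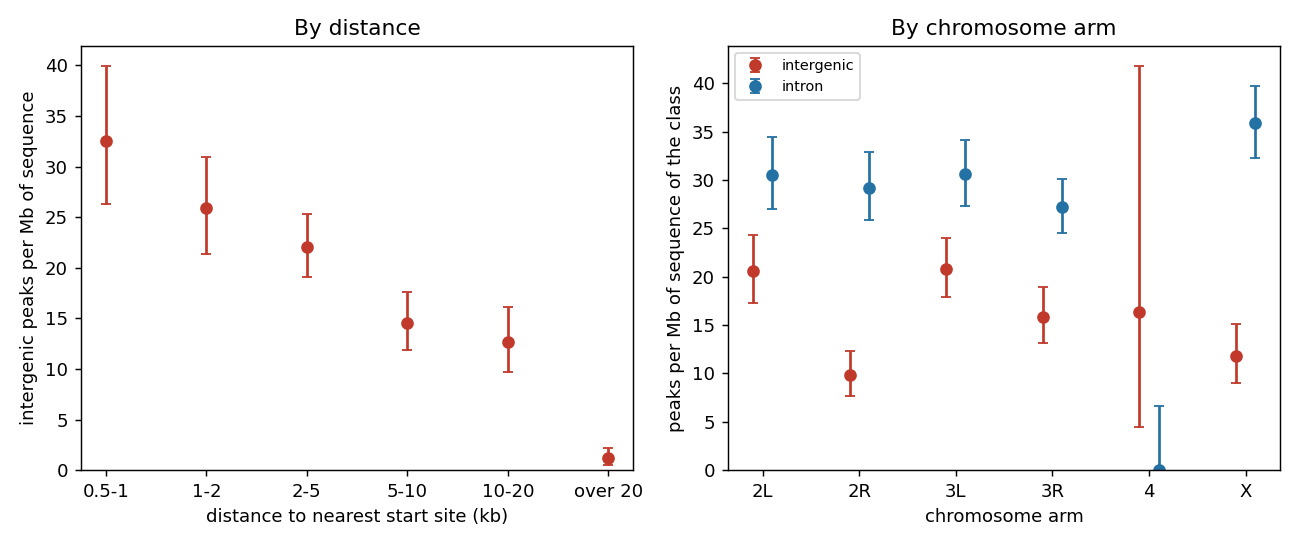
Intergenic peaks per Mb of sequence by distance from the nearest TSS (left) and by chromosome arm with intron peaks for comparison (right). Points are counts of the joint list over sequence length and bars are exact 95% Poisson intervals, which cover counting error only. Intergenic density falls from 32.6 to 1.16 per Mb with distance, and X is low for intergenic peaks (11.8) and high for intron peaks (35.9).

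Of the 584 summits, 2 lay in an annotated transposon (0.342%, interval 0.0415 to 1.23%), although transposons made up 10.9% of the intergenic sequence. Reads from repeated sequence are often discarded in alignment, and their treatment was not given in the sources used here. Peaks in transposons were near ed, which encodes a cell adhesion molecule, and near CR43276, with signals of 433 and 157.5.

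The genes on either side were considered next. Gaps between divergent genes held 145 peaks at 19.6 per Mb (16.6 to 23.1), tandem gaps 305 at 16.7 (14.9 to 18.7) and convergent gaps 134 at 14.4 (12.1 to 17.1). The sequence between the outermost genes and the chromosome ends, 1.35 Mb, held none, which allows up to 2.73 per Mb. The differences between kinds of gap were not tested. The nearest gene edge was a 3′ end for 303 peaks and a 5′ end for 281.

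The 584 peaks occupied 413 of 6528 gaps that hold sequence meeting the rule, 302 of them with 1 peak and 111 with several. The gaps with a peak had a median length of 8727 bp against 1666.5 bp for all gaps. Peaks per Mb nonetheless fell with gap length, from 32.6 (27.6 to 38.3) in gaps of up to 5000 bp to 1.72 (0.984 to 2.80) in gaps above 50000 bp.

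The most occupied gaps were all on 3L. The gap of 32964 bp between tRNA:Ile-TAT-1-2 and CG13898 held 7 peaks with signals from 208 to 530.3, and the strongest peaks of replicates 1, 2 and 3 included 7, 7 and 8 there. The gap of 75047 bp between NijA and CG43245 also held 7, with 6, 6 and 7 in the libraries. Between lncRNA:CR44363 and CG7560, 6 peaks lay within 19063 bp, with signals from 169 to 814. The gaps between lncRNA:CR45937 and lncRNA:CR45936 (8939 bp) and between scyl and lncRNA:CR44720 (17787 bp) held 5 each. In all, 282 of the 584 peaks (48.3%) shared a gap with another, and 22 overlapped another intergenic peak. The intervals given here count each peak as an event of its own and do not allow for this clustering.

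The nearest TSS belonged to a protein-coding gene for 385 peaks (65.9%) and to a noncoding RNA gene for 179 (30.7%). In all, 450 genes had the nearest TSS of at least 1 peak, or 2.48% of 18164 genes. Of these 450 genes, 68 (15.1%, interval 11.9 to 18.8%) also had a joint-list summit within 500 bp of a TSS, against 11.4% of all genes.

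Several lists of developmental regulators were above the 2.48% of all genes. Of 22 neural regulators, 5 (22.7%, interval 7.82 to 45.4%) had the nearest TSS of a peak, and of 26 T-box, GATA and homeobox genes, 6 (23.1%, interval 8.97 to 43.6%). For gap and pair-rule genes the count was 4 of 14 (28.6%, interval 8.39 to 58.1%), the genes found from 15 listed symbols. The pair-rule gene hry was not among the 14 and had the nearest TSS of 2 peaks (signals 226 and 183). This count and the density below leave those peaks out. Genes of these lists have long gaps around them, so the peaks were also set against the sequence for which each list has the nearest TSS. That gave 61.8 per Mb (29.7 to 114) for neural regulators, 58.5 (25.3 to 115.3) for T-box, GATA and homeobox genes and 30.6 (8.35 to 78.5) for gap and pair-rule genes, against 16.1 over all genes. The first 2 intervals lie above 16.1, and the counts are 10 and 8 peaks, several of them at the same gene.

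The SoxB gene D had 3 peaks downstream of its TSS, 1 of them weak in replicate 2 (ranks 1675, 13466 and 3744). The strongest, at 3L:14174263-14174534 (signal 598), was 3112 bp away and ranked 804, 346 and 349. The T-box gene Doc2 also had 3, the strongest at 3L:9025796-9025956 (signal 380.2), 6567 bp upstream, with ranks of 865, 1557 and 1100. A peak at X:8656701-8656847 (signal 332) lay 6088 bp upstream of oc, a head patterning homeobox gene, and ranked 914, 2720 and 1188.

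Among segment polarity genes and signalling ligands, 4 of the 21 genes found from 22 listed symbols (19.05%, interval 5.45 to 41.9%) were nearest. The share over all genes was 2.48%. Per Mb of nearest sequence this was 29.1 (9.44 to 67.8), an interval that includes the 16.1 of all genes. The strongest peak was 5293 bp upstream of ptc, the Hedgehog receptor (2R:8644251-8644499, signal 504, ranks 567, 501 and 653). One at 2L:7295994-7296169 (signal 499) lay 11050 bp upstream of wg, which encodes a Wnt ligand, and ranked 564, 674 and 724. Of 14 mesoderm and muscle regulators, 2 were nearest to a peak (14.3%, interval 1.78 to 42.8%), bin with a signal of 363 and slou with 199. That was 25.7 per Mb (3.11 to 92.8), which also includes 16.1.

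An excess per Mb was not limited to developmental regulators. Of 60 gustatory receptor genes, 3 (5%, interval 1.04 to 13.9%) were nearest to 6 peaks, or 61.0 per Mb (22.4 to 133). The interval of the share includes the 2.48% of all genes. Of the 6 peaks, 3 were near Gr93a and 2 near Gr93d, on the same arm. The strongest of each lay at 3R:21828787-21829222 and 3R:21848977-21849412.

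The remaining lists of protein-coding and microRNA genes held 2 peaks at most. No Hox gene of 8, immune gene of 19, heat shock gene of 15, odorant receptor gene of 59, microRNA gene of 260 or cytoplasmic ribosomal protein gene of 92 had the nearest TSS of an intergenic peak. The upper limits of these shares were 36.9%, 17.6%, 21.8%, 6.06%, 1.41% and 3.93%, so all but that of microRNA genes reach past 2.48%. For all 6 lists the interval of the density reaches 16.1 per Mb or more. The count was 1 of 17 for zinc transporter genes, that of Zip89B, and 1 of 16 for ecdysone response genes. In the list drawn up as insulator and promoter-binding factors it was 1 of 16. That gene was pnt, and its place among such factors rests on the list alone. The count was 2 of 70 for Cpr cuticle genes, 1 of 32 for dpr and DIP genes, 1 of 22 for beat and side genes and 1 of 66 for ionotropic receptor genes. Of long noncoding RNA genes, 126 of 1944 were nearest (6.48%, interval 5.43 to 7.67%), above the 2.48% of all genes. For tRNA genes the share was 12 of 295 (4.07%), with an interval from 2.12 to 6.998% that includes it. Per Mb of nearest sequence, lncRNA genes had 19.8 (16.9 to 22.9) and tRNA genes 48.7 (27.8 to 79.0), of which 4 of 16 peaks were near tRNA:Ile-TAT-1-2.

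At CG1529 itself, on X at 21028652-21031950, the closest intergenic peak was 14090 bp from the TSS, with a signal of 166.3. It was nearer to a TSS of r-cup.

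Base composition at the summits was skewed towards A and T. Within 50 bp of the summit the 584 intergenic peaks had a mean G+C content of 33.8% ± 8.66 (SD over peaks), and it was below that of the peak's own flanks, windows of the same size centred 300 bp to either side, in 466 of 584 (79.8%). The flanks had a mean of 44.9%. All intergenic windows of that size outside peaks, 353454 of them, had a mean of 40.8%. The summits were therefore below the intergenic average and the flanks above it, and the G+C content returned to about that average by 600 bp from the summit.

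Each library showed the dip at its own summits. The difference between summit and flank was -11.2, -9.97 and -10.05 percentage points in the intergenic peaks of replicates 1, 2 and 3 (mean -10.4 ± 0.670, SD, n = 3, exact two-sided sign-flip permutation p = 0.25, the smallest possible). Intron peaks (-10.2 points in the joint list) and promoter peaks (-10.2) had a like dip, so it was shared by all 3 classes. At 1000 bp to the left of the summit the mean G+C content was 41.3% for intergenic, 40.7% for intron and 44.1% for promoter peaks.

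**Figure D4:**
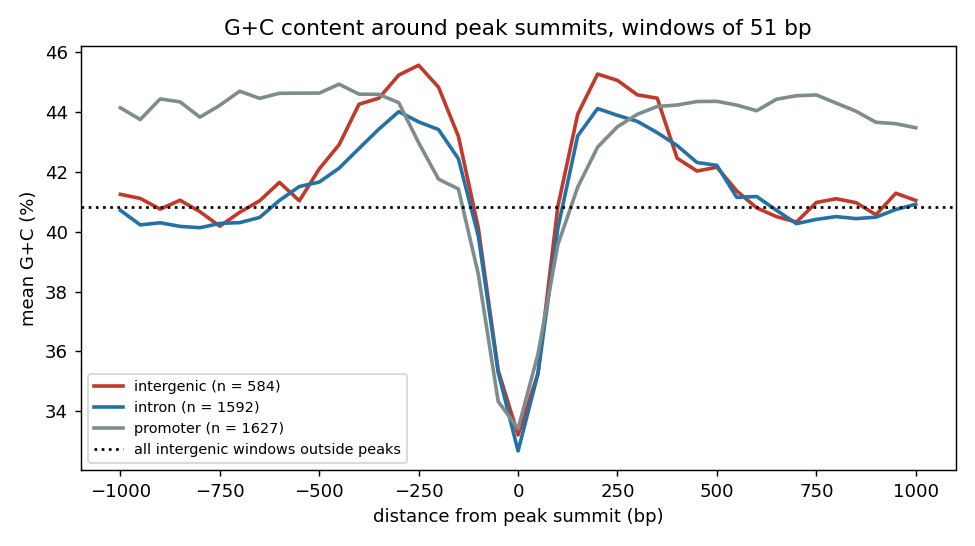
Mean G+C content (y axis, percent) in windows of 51 bp by distance from the summit (x axis, bp) for intergenic, intron and promoter peaks of the joint list. The dotted line is the mean of all intergenic windows outside peaks (40.8%). All 3 curves fall to about 33% at the summit, and the intergenic curve passes 45% on either side before returning to the dotted line.

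Short words were counted on both strands, overlaps allowed, and a match is a description of the sequence, not a binding site. Within 50 bp of the summit TATAAA was found in 19.9% of intergenic peaks against 8.99% of their flanks and 12.5% of all intergenic windows. TAATTA, a core read by many homeodomain proteins, was found in 9.25% against 5.91% and 7.40%. Its difference between summit and flank varied between libraries, 1.76 ± 2.15 points (SD, n = 3), and was positive in 2 of 3. Replicate 2 held it in 6.02% of summits and 6.73% of flanks. GAGAG, the core of the GAGA factor site, was less frequent there than in the flanks, 10.4% against 13.7%. All intergenic windows held it in 11.0%. Within 125 bp the order reversed, to 29.1% against 27.0% of flanks centred 600 bp away. Over the 3 libraries that wider comparison gave 30.8% against 26.0%, higher at the summit in 3 of 3. All joint peaks held these words at the summit in 22.5%, 9.94% and 10.1%, in the order given. Each of these values lies within the 95% interval of the intergenic share, so these words did not set intergenic peaks apart from the list. Of the 20 words of 8 bases that stood out most at the summit, 13 held only A and T.

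CACTGNG, a form that covers words ranked in earlier work on these same peaks, was in 38 summit windows (6.51%, interval 4.65 to 8.82%), close to the 6.33% of all joint peaks. Its flanks held it in 4.54% and all intergenic windows in 3.42%. The difference between summit and flank was 2.23 ± 0.214 points over the 3 libraries (SD, n = 3, exact two-sided sign-flip permutation p = 0.25). Its direction in the joint list depended on the window. With 25 bp to either side of the summit it was -0.599 points and with 100 bp 12.4 points, and in the 254 intergenic peaks shared with all 3 libraries it was -0.394. The positions of the matches were therefore mapped.

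The CACTG core was sparse at the summit and frequent beside it. It occurred 1.93 times per 1000 bp within 19 bp of the 584 summits, 3.99 times between 20 and 125 bp, and 1.79 times between 226 and 330 bp. Most matches of the middle zone read toward the summit, 322 against 172 that read away (65.2%), where reading toward means CACTG on the plus strand to the left or on the minus strand to the right. Farther out, the counts were 129 and 91 (58.6%). The zone, the core and the orientation were chosen after the data were seen.

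With the longer word CACTGAGA the arrangement was sharper. It lay between 20 and 125 bp of an intergenic summit 62 times, and 57 of these read toward the summit (91.9%). Within 19 bp there were 2 matches, and between 226 and 330 bp there was 1. Within 125 bp of the summit 59 of the 584 peaks held it (10.1%, interval 7.78 to 12.8%), against 1.11% of windows centred 600 bp to either side and 0.792% of all intergenic windows of that length, and against 5.38% of all joint peaks. Intergenic sequence by the rule holds 1259 copies, of which 72 (5.72%, interval 4.50 to 7.15%) lay in intergenic peaks that cover 0.598% of it, so most copies were outside peaks.

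**Figure D5:**
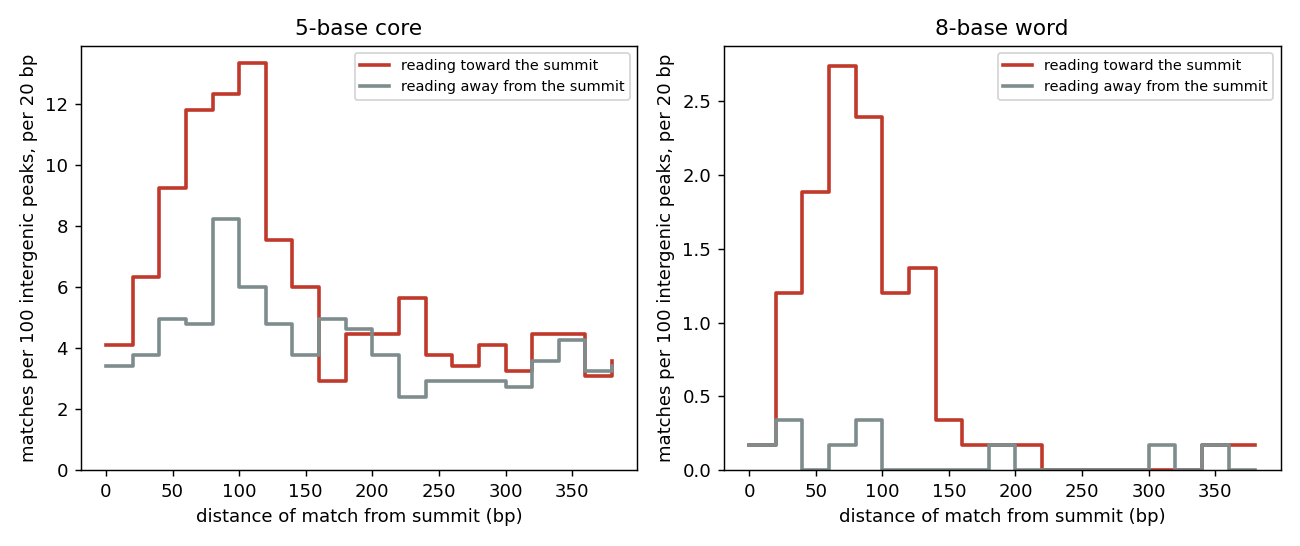
Matches per 100 intergenic peaks in bins of 20 bp (y axis) by distance from the summit (x axis, bp), split by whether they read toward the summit or away from it. The left panel is the 5-base core and the right panel the 8-base word. Both are frequent at 40 to 120 bp, mainly in the inward direction, and are rarer at the summit itself.

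The words recurred at the summits of each library taken alone. CACTGAGA was within 125 bp of 9.14%, 9.44% and 8.32% of the intergenic peaks of replicates 1, 2 and 3 (8.97% ± 0.581, SD, n = 3), and of 1.10% ± 0.344 of the flanks. In the 3 libraries 92.3%, 91.8% and 91.3% of its matches between 20 and 125 bp read inward. The libraries share most of their sites, so these are largely the same sequences and not independent of each other.

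The bases beside the core differed by orientation. After inward CACTG in intergenic peaks, A stood at positions 10, 11 and 12 in 71.4%, 72.4% and 72.7% of 322 matches, counting the C of CACTG as position 1. After outward CACTG it stood there in 20.9%, 28.5% and 22.7% of 172. In introns A stood there in 62.2%, 66.1% and 61.3% of inward matches and 23.4%, 24.7% and 25.6% of outward ones. At promoters the shares were 47.0%, 50.8% and 49.9% inward and 25.2%, 26.8% and 25.8% outward, so this difference was not particular to intergenic peaks. Before the inward core in intergenic peaks, the base at position -1 was A or G in 44.4% and 40.1%, and T stood at -2 in 60.6%. For T at -2 the inward share was 54.8% in introns and 44.2% at promoters. Of the 20 words of 8 bases that stood out most within 125 bp, 13 held CACTG or its complement, among them TCAGTGCA (9.42% of peaks against 1.11% of flanks), TACACTGA (7.19% against 0.856%) and CACTGAAA (8.56% against 2.14%).

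A pair of inward cores facing each other across the summit, each between 20 and 125 bp away, was found in 62 intergenic peaks (10.6%), as in the sequences near CG43401, lncRNA:CR45303 and tRNA:Leu-CAA-2-2 shown above. An outward pair was found in 26. Inward pairs were also present in 109 intron peaks (6.85%) and 59 promoter peaks (3.63%), and outward pairs in 71 and 50. The distance from the summit in the 3 sequences named was 54 and 86 bp, 71 and 60 bp, and 78 and 116 bp, left and right. By contrast the stronger peak near CG31668 has 2 outward cores, 88 bp to the left and 93 bp to the right, as has the one upstream of lncRNA:CR45643, at 83 and 93 bp.

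The word CACTGAGA was picked as the first-ranked word of the intergenic peaks themselves, so a higher share there was favoured by the choice. The share with CACTGAGA within 125 bp was 5.69% ± 0.537 in introns and 2.84% ± 0.184 at promoters (SD, n = 3), a difference of 3.28 ± 0.361 and 6.13 ± 0.495 points, higher at intergenic peaks in 3 of 3 libraries (exact two-sided sign-flip permutation p = 0.25 for each). Not every word with the core went this way: CACTGTG was within 125 bp of the summit in 8.22% of intergenic, 9.67% of intron and 9.40% of promoter peaks of the joint list. The inward share of the CACTG core was 63.7% ± 1.21 for intergenic, 55.4% ± 0.886 for intron and 50.7% ± 1.28 for promoter peaks, in that order in 3 of 3 libraries (p = 0.25 for each difference, the same permutation test), and orientation too was first noted in intergenic peaks. The inward share of CACTGAGA was high in all classes, 91.8% ± 0.502, 93.8% ± 0.333 and 87.2% ± 2.07, so that arrangement was not particular to intergenic peaks.

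The same values were taken by strength of the peak. An inward CACTG was present in 41.0% of the strongest 195 intergenic peaks, 41.0% of the middle 195 and 39.2% of the weakest 194. CACTGAGA was present in 9.74%, 10.8% and 9.79%, and the mean G+C content at the summit was 33.5%, 33.5% and 34.6%. Differences between the 3 groups were not tested.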

How the data were processed

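Peak lists of 3 ChIP-seq libraries, their pool and a joint list kept by irreproducible discovery rate, called here the joint list (the optimal list of the authors), were used in dm6 coordinates, per the deposited file listings. Peaks were ranked by the deposited signal, within 1 list only, because the deposited −log10 q-value has a ceiling that many strong peaks reach. The aligner, the peak caller, the discovery rate cutoff and any scaling of signal to the control were not given in the sources used here, and read depth is unknown. Replicates are separate biological samples per the labels, and the control alignment and signal tracks were not used here. No table column lacked a library. The joint list holds 3921 rows, 3905 distinct, and each relaxed list 30000 rows.

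Genes and TSSs came from Ensembl release 115 without transposons, and bases from the Release 6 genome, whose chromosome lengths contained every peak. Peaks were compared with the 3921 strongest of each library. Scripts in Python 3.11.15 (numpy 2.4.6, pandas 2.3.3, scipy 1.17.1) were tested on simulated data. Intervals are 95% exact Clopper-Pearson or Poisson intervals and cover counting error only. Library differences used the exact sign-flip permutation test over 3 libraries. Named peaks are the 25 strongest, the 5 fullest gaps, up to 3 genes per list by signal, those beside the limit of 500 bp, the 3 most remote and CG1529. Gene lists were counted over the symbols found in the annotation, which for some lists were fewer than those listed. The peaks, gene lists and words were chosen with earlier results of these data known, and the orientation of CACTG, the word CACTGAGA and the printed sequences that hold it after seeing them. Alternatives were other TSS distances, coding genes only, subsets of the list, list lengths, overlaps, windows and leaving out each replicate.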

Additional observations from a re-analysis of the deposited data

How the results depend on the processing

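All 3 libraries belong to 1 group, so no samples are paired between groups, and the tests above pair values within each library. With TSS distances of 250, 1000 and 2000 bp in place of 500 bp, the intergenic share of the joint list (14.96%) became 19.1%, 12.6% and 9.58%, the share of the strongest library peaks (14.7%) 18.8%, 12.3% and 9.44%, and the density (16.1 per Mb) 19.6, 14.7 and 12.95. At 250 bp the median signal became 249. The G+C difference (-11.0 points) was -12.1 points at both 1000 and 2000 bp, and the CACTGNG difference (1.97 points) was 1.01 at 250 bp and 3.21 at 2000 bp. With coding genes only, the shares became 18.7% and 18.3%, the density 18.3 and the CACTGNG difference 2.39.

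In the stronger 50% of the joint list the intergenic share was 13.2%, the share with all 3 libraries (43.5%) 60.9%, the median signal 367, the density 7.11 and the CACTGNG difference 1.36. Densities of subsets are lower by construction. In joint peaks shared with all 3 libraries the median signal was 277, the density 7.004 and the G+C difference -12.0, and the CACTGNG difference reversed to -0.394. Comparing 50% or 200% as many peaks per library gave shares with all 3 libraries of 18.3% and 73.8%, and the latter a library share of 17.1%. An overlap of 1 bp gave 61.3%. Windows of 25 bp to either side reversed the CACTGNG difference to -0.599, and those of 100 bp gave 12.4 and a G+C difference of -9.13. Flanks at 500 bp gave 2.31 and -8.13. The cause of these reversals was not tested.

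Leaving out each replicate in turn moved the share with all remaining libraries to 49.8 to 61.0%, and left the library share at 13.4 to 15.7%, the G+C difference at -10.6 to -10.01 and the CACTGNG difference at 2.13 to 2.35. Added after the data were seen, the inward share of CACTG (65.2%) was 67.7% at 20 to 75 bp, 63.5% at 75 to 125 bp and 63.2% in peaks shared with all 3 libraries. Its mean over libraries was 63.1 to 64.3% without 1 replicate. Some planned combinations were not run, the library share in subsets of the joint list, and sharing within peaks chosen for sharing. The number of peaks per class limits the precision, and depth in reads is unknown.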
